A study of Mus musculus with 2 samples.

Results

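The 38 cell cycle genes described here were taken by symbol from the gene tables of a single-cell RNA study of mouse dorsal root ganglia, the sensory ganglia beside the spinal cord. All 38 were among the 32285 genes of both libraries. 16 of them act in S phase, 19 act in G2 and mitosis, and 3 are G1 cyclins. The genes were chosen by symbol. Dorsal root ganglia of all axial levels came from mice at postnatal day 4. 1 library was made from Ptges3 flox/flox mice (the flox library) and 1 from Dhh CRE+, Ptges3 flox/flox mice (the cKO library), so both carried floxed Ptges3 alleles. In Dhh-Cre mice regulatory sequence of desert hedgehog drives the recombinase, in cells of the Schwann lineage. The number and sex of the mice in each library are not given in the sources used here. The series title names PGE2, a prostaglandin secreted by Schwann cells, and developing sensory neurons. The comparison here asks how cell cycle transcripts were spread over the cells of the ganglion, and whether that differed between the libraries.

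A cell that divides first licenses its replication origins by loading the Mcm helicase in G1, and fires them in S phase. The replication clamp Pcna, nucleotide-making enzymes and chromatin factors act during replication. In G2 and mitosis, cyclin A and cyclin B activate Cdk1, and spindle kinases, motors and kinetochore proteins then divide the chromosomes. S-phase genes are classically driven by E2F factors from late G1, and G2/M genes by complexes that bind CHR elements, often beside CCAAT boxes read by NF-Y. In the early postnatal ganglion, sensory neurons have left the cycle. Schwann cells stop dividing before they myelinate, and immature glia, satellite glia, connective tissue and vessels can still divide.

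With 1 library per genotype no difference below has a replicate check, no p-value is given, and all 95% intervals cover counting error only. UMIs (unique molecular identifiers, tags that mark single RNA molecules) of 1 dividing cell come together, so intervals on summed UMIs are too narrow, whereas shares of cells count each cell once. The libraries held 132620886 (flox) and 78144437 (cKO) UMIs. After filters 8107 flox and 7866 cKO cells remained, with medians of 6886 and 4319.5 UMIs, and 16 barcodes occurred in both libraries. To remove that gap in depth, every cell was thinned at random to 1000 UMIs, and levels are UMIs per 1000 such cells. The libraries also differed in content. The flox library held 605 oligodendrocyte-like and 171 astrocyte-like cells and 337 cells of a Wnt4-expressing fibroblast-like cluster, against 0, 0 and 3 in the cKO library. Every marker of its own class was found in both libraries, for all 5 classes described.

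The targeted gene was checked first. In glia-like cells Ptges3, which encodes the HSP90 cochaperone p23, stood at 243 UMIs per 1000 cells in the flox library and 124 in the cKO library. The log2 ratio of cKO over flox was -0.97 (95% interval -1.15 to -0.79). In fibroblast-like cells it was 172 and 221, a log2 ratio of 0.36 (0.10 to 0.63). The labels do not name the floxed exons, so the 3′ counts may include transcripts of the deleted allele.

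Cell cycle transcripts were found in every class, and glia-like cells had the highest G2/M sum of the 5 classes in both libraries. In glia-like cells (3659 flox and 2988 cKO) the 16 S-phase members summed to 599.6 UMIs per 1000 cells in the flox library (95% interval 575 to 625) and to 717 in the cKO library (687 to 748). The 19 G2/M members summed to 1217 (1181 to 1253) and 1276 (1236 to 1317). Both sums were thus higher in the cKO library, the S-phase sum by 0.26 log2 (0.17 to 0.34) and the G2/M sum by 0.07 (0.01 to 0.13). Unthinned, with UMIs scaled to the class total, the ratios were 0.35 and 0.16. The interval of the G2/M ratio included 0 with another random seed of the thinning (0.05, -0.01 to 0.12), and without the clusters led by myelin genes the ratio was -0.39.

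Outside the glia, G2/M transcripts were lower in the cKO library in 3 of the 4 other classes, while S-phase sums differed less. In fibroblast-like cells (1280 flox and 1177 cKO) the G2/M sum was 523 (flox) and 323 (cKO), a log2 ratio of -0.70 (-0.88 to -0.51). The S-phase sum there was 365 and 355, a ratio of -0.04 (-0.23 to 0.15). Endothelial-like cells (167 and 149) had the widest G2/M gap of the 5 classes, 844 against 322, a ratio of -1.39 (-1.89 to -0.91), with an S-phase ratio of -0.29 (-0.72 to 0.14). In mural-like cells (124 and 172), the pericytes and smooth muscle of vessels, the S-phase sum was 661 and 488, a ratio of -0.44 (-0.89 to 0.02). The G2/M sum there was 911 and 529, a ratio of -0.78 (-1.20 to -0.37). That value moved to -0.25 (-0.66 to 0.16) with another random seed of the thinning, to -0.056 (-0.35 to 0.24) at 2000 UMIs per cell and to -0.37 unthinned. Macrophage-like cells (404 and 161) had G2/M sums of 483 and 460, a ratio of -0.07 (-0.48 to 0.32), and S-phase sums of 520 and 422, a ratio of -0.30 (-0.72 to 0.10).

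**Figure D1:**
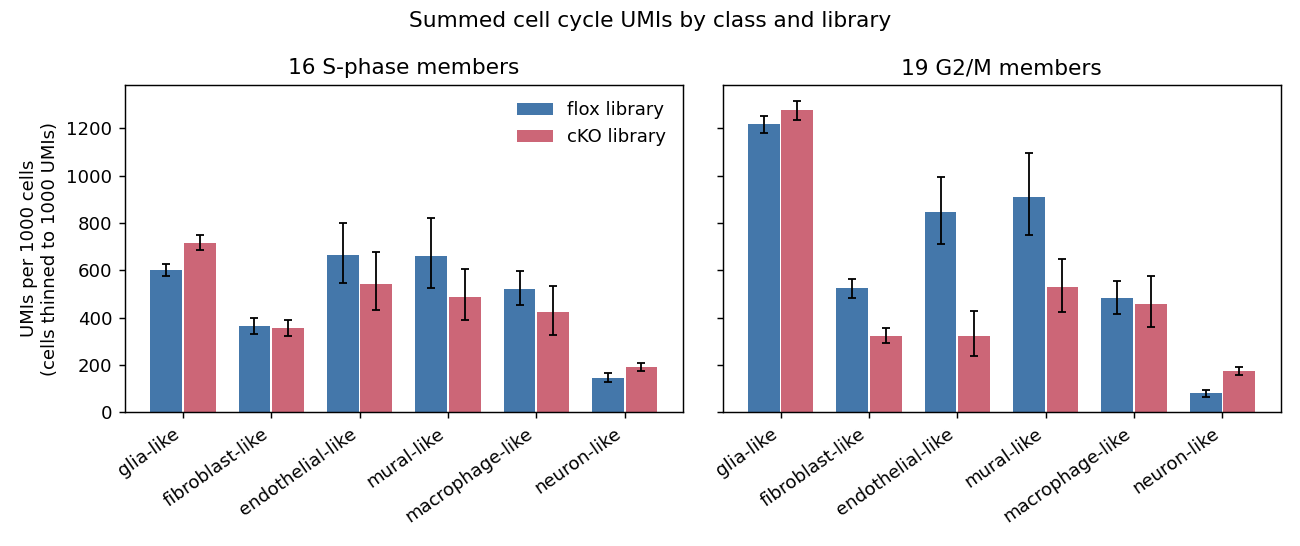
Summed UMIs of the 16 S-phase members (left) and 19 G2/M members (right) per 1000 cells, each cell thinned to 1000 UMIs, in 5 classes and in neuron-like cells of the flox and cKO libraries. Bars are sums and lines exact Poisson 95% intervals (counting error only). The cKO bar is lower for G2/M in fibroblast-like, endothelial-like and mural-like cells (323, 322 and 529 against 523, 844 and 911 in the flox library) and higher in glia-like and neuron-like cells.

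Neuron-like cells, which should be out of the cycle, served as the background class. They held 147 (flox) and 190 (cKO) S-phase and 80.6 and 173 G2/M UMIs per 1000 cells. Their G2/M sum was higher in the cKO library by 1.10 log2 (0.80 to 1.41), so this background itself differed between the libraries. Of the 3 G2/M members measured there all 3 were higher (Ube2c, Birc5 and Prc1), where 6.49% of 7871 genes were, and 0 were lower, where 14.6% were. The make-up of the class differed too, with 113 flox and 868 cKO cells in cluster 3 and 2 and 224 in cluster 22. Among better shared neuron-like clusters, G2/M UMIs per 1000 cells were 60.3 and 201 in cluster 12 and 41.1 and 45.5 in cluster 10. In cluster 15 they went the other way, at 234 and 134. The part of this make-up was not tested. After thinning, 6.35% of flox and 14.5% of cKO neuron-like cells had a G2/M UMI, at median depths before thinning of 48212.5 and 12181 UMIs. In glia-like cells the share was 20.3% and 27.9% (medians 5788 and 3062.5), above the neuron-like share in both libraries. In fibroblast-like cells it was 13.8% and 12.3% (medians 6863.5 and 4658), and in mural-like cells 19.4% and 13.4% (medians 4719.5 and 2240.5). Both cKO values lie below the neuron-like share of that library, so no difference between the libraries is read from these 2 shares. The cKO cells with a G2/M UMI held 2.62 of them on average when fibroblast-like, 3.96 when mural-like and 1.20 when neuron-like. The shares were 26.3% and 16.8% in endothelial-like cells (medians 8800 and 4536) and 16.1% and 19.3% in macrophage-like cells (medians 4477.5 and 3807). Per gene, all 19 G2/M members in glia-like cells had intervals above those of neuron-like cells in both libraries. In fibroblast-like cells 16 of 19 did in the flox library and 4 in the cKO library. These counts were not made over all genes. The neuron-like level they are set against was itself higher in the cKO library, so no fibroblast result is read from them.

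Cells with several members were rare among neuron-like cells. There, 2.32% (flox) and 5.52% (cKO) showed at least 2 of the 35 phase members, while 5 or more were found in 0 of 1464 flox cells (upper 95% bound 0.252%) and in 2 of 2227 cKO cells. In glia-like cells 21.0% of the flox (95% interval 19.7 to 22.4) and 27.9% of the cKO library (26.3 to 29.6) held at least 2 members, a log2 ratio of 0.41 (0.26 to 0.55). Unthinned, the shares were 48.0% and 44.5%, the reverse order at unequal depth. At least 5 members were held by 11.3% (10.3 to 12.4) of flox and 14.0% (12.7 to 15.3) of cKO glia-like cells. At 10 members or more the order turned, with 3.25% (2.70 to 3.88) in the flox and 1.77% (1.33 to 2.31) in the cKO library. More glia of the cKO library thus held at least 2 or at least 5 members, and fewer held 10 or more. The G2/M UMIs per G2/M-positive glia-like cell were 5.98 in the flox and 4.58 in the cKO library.

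In the other 4 classes the cKO library had the lower share with at least 2 members, and every interval of those ratios included 0. It was 12.7% and 10.5% in fibroblast-like cells (ratio -0.28, -0.63 to 0.07) and 25.7% and 19.5% in endothelial-like cells (-0.40, -1.14 to 0.31). In mural-like cells it was 22.6% and 14.0% (-0.69, -1.54 to 0.14), and in macrophage-like cells 15.6% and 13.0% (-0.26, -1.04 to 0.47). Other limits gave other answers. At least 3 members were held by 21.6% (15.6 to 28.6) of flox and 8.05% (4.23 to 13.6) of cKO endothelial-like cells. At least 5 were held by 5.08% (3.94 to 6.43) and 2.72% (1.87 to 3.82) of fibroblast-like cells, and with cells thinned to 500 UMIs their ratio of shares with at least 2 was -0.83 (-1.32 to -0.35). Unthinned shares were 51.8% and 39.3% in fibroblast-like, 69.5% and 55.7% in endothelial-like, 46.8% and 29.7% in mural-like and 44.6% and 41.0% in macrophage-like cells.

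**Figure D2:**
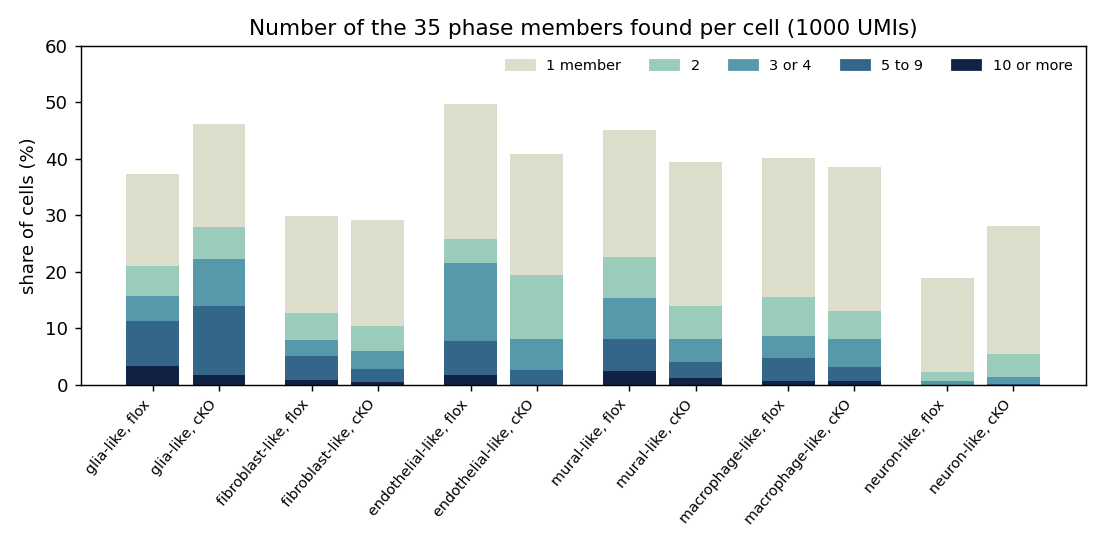
Share of cells (%) by the number of the 35 phase members found after thinning to 1000 UMIs, stacked from 10 or more (dark) to 1 (light), for each class and library. The 2 neuron-like bars consist mostly of cells with 1 member, and the glia-like bar of the cKO library is taller than that of the flox library at 2 or more (27.9% against 21.0%) but has the smaller top category (1.77% against 3.25%).

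The glial comparison depends on which glia each library held. 7 glia-like clusters were found, and cell cycle genes had been left out of the clustering. Cluster 1 (1089 flox and 29 cKO cells), cluster 4 (870 and 26) and cluster 7 (783 and 14) were almost wholly from the flox library. Cluster 0 (55 and 1233) and cluster 8 (38 and 715) were almost wholly from the cKO library, and cluster 2 (430 and 625) and cluster 9 (394 and 346) were mixed. Clusters 4, 7 and 8 had peripheral myelin genes such as Cldn19 among their 10 leading genes, and they made up 46.2% of flox and 25.3% of cKO glia-like cells. Members were scarce there in both libraries, with 145 and 156 S-phase and 57.4 and 55.6 G2/M UMIs per 1000 cells. At least 2 members were found in 2.13% and 1.72% of those cells.

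With the myelin-led clusters left out, a setting chosen after seeing the data, the direction of the glial result turned. The other 1968 flox and 2233 cKO glia-like cells held 990.3 and 907 S-phase and 2213 and 1689 G2/M UMIs per 1000 cells. The log2 ratios were then -0.13 and -0.39, in place of 0.26 and 0.07. The share with at least 2 members was 37.3% and 36.8%, a ratio of -0.021. The higher glial sums of the cKO library thus went with a smaller share of myelin-led clusters in that library. Summed glial markers in glia-like cells were 48108 in the flox and 16449 in the cKO library (18 of 18 found in each), and red blood cell markers 850.2 and 382. Their part in the result was not tested.

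Cluster 9, whose leading genes are themselves G2/M genes, was 10.8% of flox and 11.6% of cKO glia-like cells. It held 80.5% of the G2/M and 37.1% of the S-phase UMIs of flox glia, but 60.5% and 31.7% of those of cKO glia. Within it the G2/M sum was 9091 in the flox and 6671 in the cKO library, and the S-phase sum 2069 and 1962. In cluster 2, led by the satellite glia marker Fabp7, the sums were 1067 and 1171 for G2/M and 812 and 889.6 for S phase. The large cKO cluster 0 had 630.2 S-phase and 581 G2/M UMIs per 1000 cells. Cluster 1, the most numerous in the flox library, had 691 and 252. These values come from different libraries, since each of the 2 clusters came almost wholly from 1 library. The few remaining cells held 727 G2/M UMIs per 1000 cells in cluster 0 (55 flox cells) and 517 in cluster 1 (29 cKO cells). Within the cKO library clusters 0 and 1 were thus at 581 and 517.

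**Figure D3:**
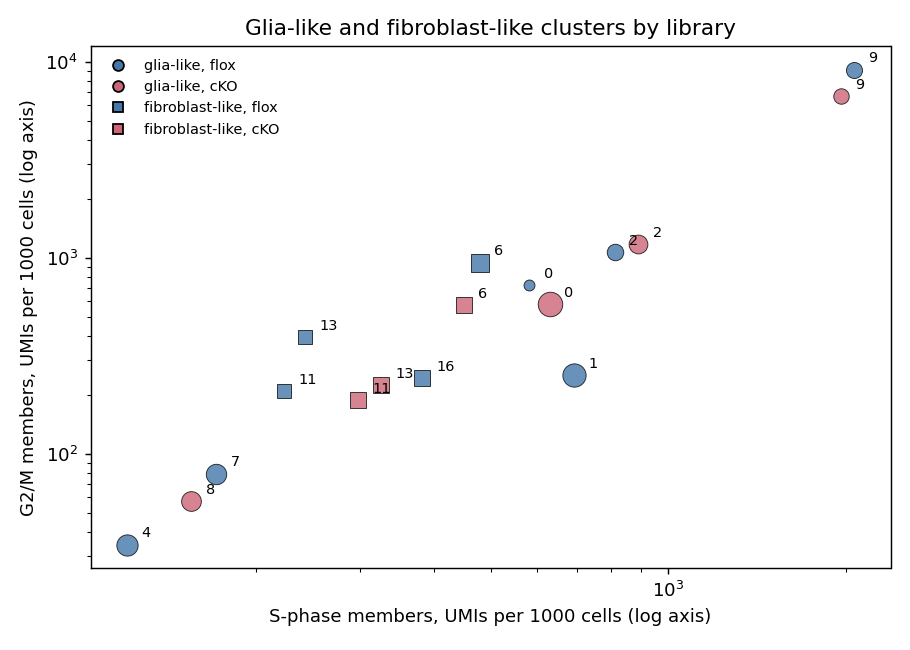
S-phase (x axis) against G2/M (y axis) UMIs per 1000 cells, both on log axes, for each glia-like (circle) and fibroblast-like (square) cluster with at least 50 cells in a library; numbers are clusters, colours libraries, and larger marks hold more cells. Cluster 9 stands highest on both axes (9091 G2/M UMIs flox, 6671 cKO), and the myelin-led clusters 4, 7 and 8 lie lowest.

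The S-phase genes start with subunits of the Mcm helicase. In glia-like cells Mcm2, Mcm3, Mcm4, Mcm5, Mcm6 and Mcm7 ranged from 22.1 to 38.3 UMIs per 1000 cells in the flox library and from 17.7 to 44.8 in the cKO library. The log2 ratios ran from -0.44 (Mcm5) to 0.27 (Mcm2), and all 6 intervals included 0 after thinning. Unthinned, 4 lay above 0, at 0.33 (0.10 to 0.55) for Mcm2, 0.32 (0.16 to 0.48) for Mcm4, 0.37 (0.20 to 0.54) for Mcm6 and 0.44 (0.28 to 0.60) for Mcm7. Without the myelin-led clusters 2 lay below 0, at -0.42 (-0.83 to -0.01) for Mcm3 and -0.85 (-1.38 to -0.33) for Mcm5. Gins2, a subunit of the complex that activates the helicase, was at 29.8 and 33.5, and Cdc45, its partner, at 9.84 and 9.04. Cdc6, which loads the helicase, had 14 and 16 UMIs in all and was too scarce to measure.

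The clamp and its binding protein held the most UMIs of the S-phase list. Counts come from the 3′ end of transcripts and are not scaled to length. Pcna (chr2:132249162-132253314, GRCm38, minus strand), the ring that tethers DNA polymerase, stood at 120 UMIs per 1000 glia-like cells in the flox library (109 to 132) and 160.3 in the cKO library (146 to 175). Its log2 ratio was 0.41 (0.23 to 0.60), just under the 0.5 used to call a gene. Pclaf, a small protein that binds Pcna, stood at 97.0 and 112, a ratio of 0.21 (-0.01 to 0.43). Pcna was also found in 5.40% of flox and 4.85% of cKO neuron-like cells, against 10.5% and 13.6% of glia-like cells.

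Hells had the highest ratio of the S-phase list. It encodes a chromatin remodeller needed for DNA methylation, and it stood at 20.2 (15.9 to 25.4) and 39.2 (32.4 to 46.9) UMIs per 1000 glia-like cells, a log2 ratio of 0.95 (0.52 to 1.39). In neuron-like cells, the background class, Hells was also higher in the cKO library, at 26.6 and 40.9 (0.62, 0.06 to 1.20), levels no lower than those of glia. Uhrf1, which brings the maintenance DNA methyltransferase to replicated DNA, was at 24.9 and 29.8 (0.26, -0.18 to 0.70). Tyms, which makes thymidylate, was at 37.7 and 54.2 (0.52, 0.19 to 0.86). The ribonucleotide reductase subunits Rrm1 and Rrm2 were at 38.5 and 44.5, and at 33.1 and 29.1, and both intervals included 0. In all, 15 of the 16 S-phase members had at least 50 UMIs over both libraries. 2 of the 15 (Hells and Tyms) were higher by 0.5 log2 or more, where 10.6% of all 9099 genes measured in glia-like cells were, and 0 were lower, where 16.0% of all genes were. Their median ratio was 0.21 against -0.04 over all genes, and 11 of 15 lay above 0.

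That direction also rested on the myelin-led clusters. Without them the median over 15 measured members was -0.20, 3 of 15 lay above 0, Hells alone was higher (7.53% of 7930 genes were), and Mcm5, Rrm2 and Cdc45 were lower (17.4% of genes were). Over all genes the median there was -0.10. Hells was thus higher in the cKO library with and without these clusters, and in cluster 2 as well (30.2 and 65.6 UMIs per 1000 cells, ratio 1.12, 0.19 to 2.14).

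Of the G1 cyclins, Ccnd1 held the most UMIs. It encodes cyclin D1, which couples growth signals to the cycle. It stood at 565 (flox) and 475 (cKO) UMIs per 1000 glia-like cells, a ratio of -0.25 (-0.35 to -0.15) that was -0.04 unthinned. Without the myelin-led clusters its ratio was -0.59 (-0.70 to -0.47), past the call for lower, where 17.4% of 7930 genes were lower. Ccnd1-positive glia of the flox library held Mki67 in 6.81% of cells and Ccnd1-negative glia in 6.03%. In the cKO library the shares were 5.78% and 7.05%, and the intervals of each pair overlapped. Mcm6 was in 4.19% (3.18 to 5.40) of Ccnd1-positive and 2.15% (1.60 to 2.83) of Ccnd1-negative flox glia, with intervals apart. For the cKO library the Mcm6 shares were 3.89% and 3.12%, with overlapping intervals. Cyclin E genes, whose products start S phase, were scarce, with Ccne1 at 11.2 and 15.7 and Ccne2 at 7.93 and 11.7 UMIs per 1000 cells. Ccne2 passed the call at 0.56, but its interval (-0.19 to 1.33) included 0.

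**Figure D4:**
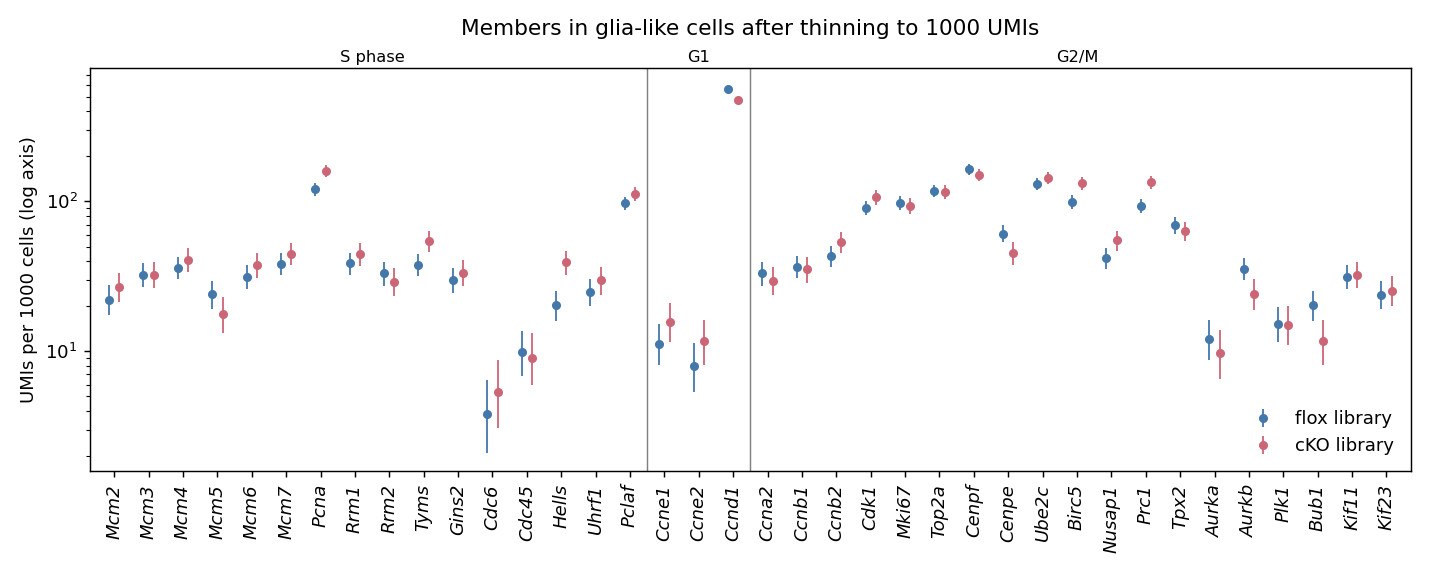
Level of each of the 38 members in glia-like cells of the flox and cKO libraries, as UMIs per 1000 cells thinned to 1000 UMIs (log axis); lines are exact Poisson 95% intervals (counting error only). Ccnd1 lies above all other members (565 and 475), and Cdc6 lies lowest.

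The G2/M list had no common direction in glia-like cells. All 19 members were measured. 1 was higher (Prc1) and 2 were lower (Aurkb and Bub1), shares below those of all genes, of which 10.6% were higher and 16.0% lower. The median ratio was -0.02 against -0.04 over all genes. Cdk1, the kinase that starts mitosis, stood at 91.0 and 106, and its cyclins Ccna2 at 33.1 and 29.5, Ccnb1 at 36.6 and 35.1, and Ccnb2 at 43.2 and 53.2. All 4 intervals included 0.

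Among mitotic kinases and their partners, Aurkb, the catalytic part of the chromosomal passenger complex, was at 35.5 (29.7 to 42.2) and 24.1 (18.9 to 30.3), a ratio of -0.56 (-0.996 to -0.13). Birc5 (survivin), a subunit of the same complex, went the other way with 99.5 and 132, a ratio of 0.41 (0.20 to 0.62). Bub1, a checkpoint kinase, was at 20.2 and 11.7, a ratio of -0.79 (-1.41 to -0.19) that became 0.015 without thinning. Aurka and Plk1, which mature the spindle poles, were at 12.0 and 9.71 and at 15.3 and 15.1.

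Of the spindle and kinetochore genes, Prc1, which bundles the microtubules of the midzone, was at 93.5 (83.8 to 104) and 134 (121 to 148), a ratio of 0.52 (0.31 to 0.73). Nusap1, another microtubule-binding protein, was at 41.8 and 54.9 (0.39, 0.07 to 0.72). Cenpe, a kinetochore motor, was at 60.9 and 45.2 (-0.43, -0.75 to -0.12). Cenpf (chr1:189640606-189688086, GRCm38, minus strand), a kinetochore protein that held the most G2/M UMIs, was at 164 and 151 (-0.12, -0.30 to 0.06). Kif11, Kif23 and Tpx2, which build or close the spindle, had intervals that included 0, as had Top2a, Mki67 and Ube2c.

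Without the myelin-led clusters the G2/M members did share a direction, 18 of 19 being below 0. Their median was then -0.50 against -0.10 over all genes, and 10 were lower (17.4% of all genes were) and 0 higher. Those 10 were Ccna2, Ccnb1, Mki67, Cenpf, Cenpe, Tpx2, Aurka, Aurkb, Plk1 and Bub1. Within cluster 9 alone 17 of 18 measured members were below 0 and 8 were lower, where 14.7% of 2630 genes were, and 0 were higher, where 8.75% were. Cenpf was there at 1129 and 705 UMIs per 1000 cells (-0.68, -0.91 to -0.45), Ccnb1 at 269 and 130.1 (-1.05, -1.59 to -0.53) and Aurkb at 294 and 150.3 (-0.97, -1.47 to -0.49). Prc1 was at 690.4 and 676 in that cluster (-0.03, -0.29 to 0.23). In cluster 2 the picture differed, with 3 of 10 measured members higher (Cdk1, Mki67 and Prc1, 9.28% of 3535 genes being higher) and 0 lower (18.1% of genes were). The difference between clusters 2 and 9 was not tested.

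**Figure D5:**
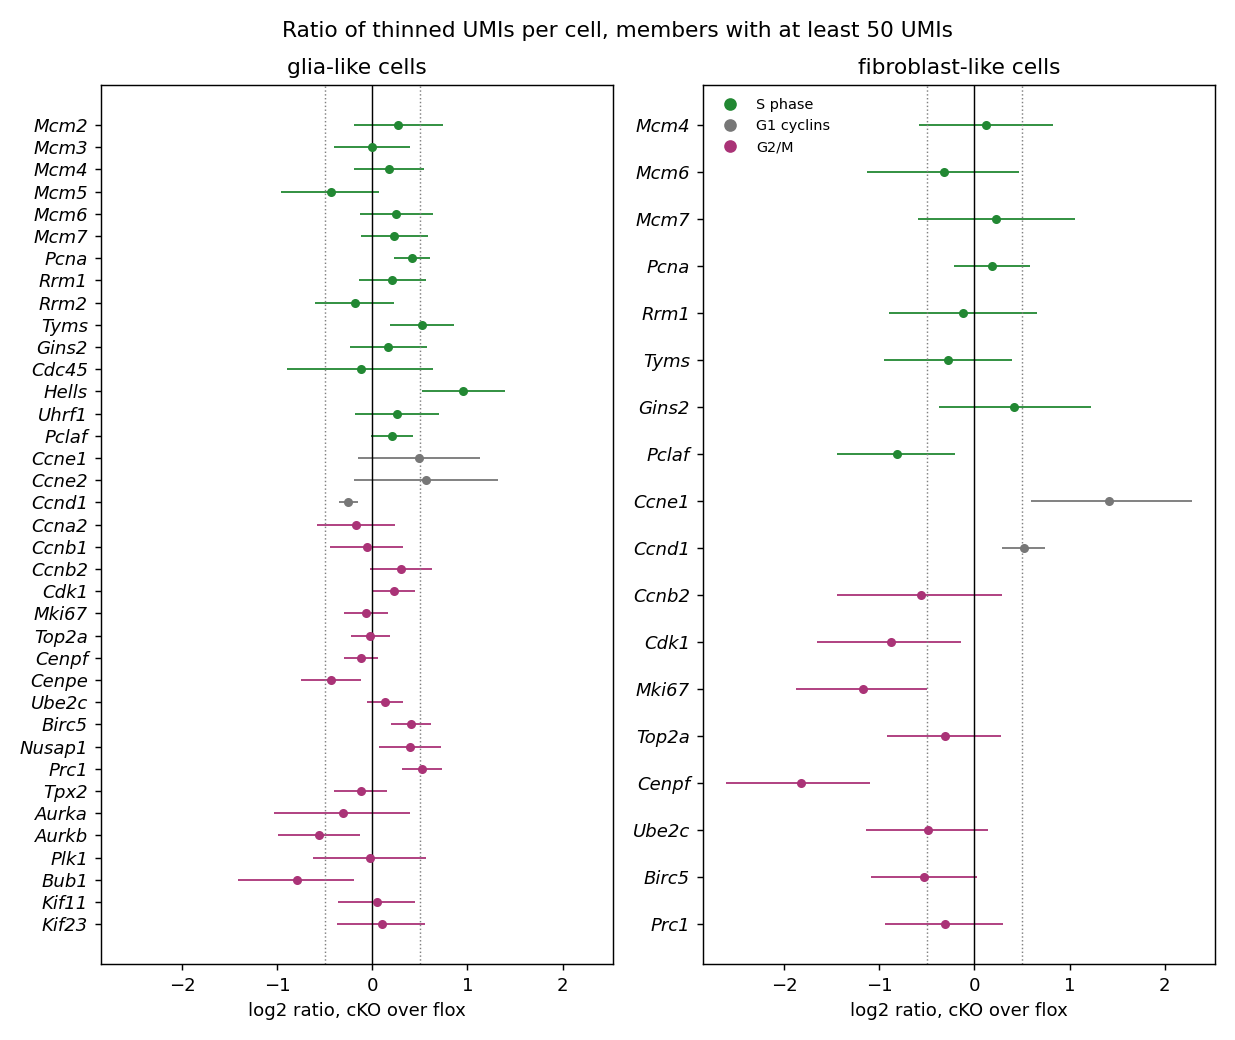
Log2 ratio of cKO over flox for each member with at least 50 thinned UMIs over both libraries, in glia-like (left) and fibroblast-like cells (right). Lines are exact conditional 95% intervals for counting error and dotted lines mark 0.5 log2 either way. In fibroblast-like cells all 8 G2/M members measured lie below 0, and in glia-like cells 8 of 19 lie above it.

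Several pairs of members of 1 phase were found in the same glia. In the flox library 51.1% of Mki67-positive glia-like cells also held Top2a, against 4.49% of Mki67-negative ones, and in the cKO library 42.9% against 5.88%. Pclaf and Pcna, both S-phase members, were paired likewise, with 37.0% of Pclaf-positive cells holding Pcna against 8.58% of the others in the flox library, and 37.4% against 11.5% in the cKO library. Birc5 was in 53.3% of Ube2c-positive cKO cells and 5.68% of the others, and Tyms in 26.0% of Rrm2-positive ones and 4.19% of the others. For some other pairs of 1 phase the intervals overlapped in that library. Plk1 was in 4.82% (1.33 to 11.9) of Ccnb1-positive cells and 1.38% (0.985 to 1.87) of the others, and Mcm6 in 7.84% (2.18 to 18.9) of Mcm5-positive cells and 3.30% (2.69 to 4.01) of the others. Mcm6 and Plk1, of different phases, shared 2 cells in each library. Of Mcm6-positive cells 1.89% (0.23 to 6.65) held Plk1 in the flox library, against 1.32% (0.974 to 1.76) of the others, and in the cKO library 1.98% against 1.45%. Pclaf and Rrm2 crossed the phases. Top2a was in 43.6% of Pclaf-positive flox cells (4.86% of the others) and in 36.6% of Rrm2-positive ones (6.605% of the others). In the cKO library these shares were 30.9% (6.31%) and 24.7% (7.90%).

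The phase lists also differ in the letters of their promoters, which the choice of genes did not use. RefSeq promoters (GRCm38.p6, from 250 bases before to 50 bases after the first start listed) matched 31 of the 38 members by symbol. On both strands they were searched for E2F words (TTCCCGC or TTCGCGC or TTGCCGC or TTGGCGC), for CHR words (TTTGAA or TTCGAA) and for the word CCAAT. An E2F word was found in 10 of 14 S-phase and 3 of 16 G2/M promoters, and in 9.69% of all 27025 promoters. A CHR word was found in 3 of 14 and 12 of 16, and in 19.4% of all. CCAAT was found in 11 of 14 and 14 of 16, and in 37.9% of all. All 12 G2/M promoters with a CHR word also held CCAAT, and both words stood in 7.70% of all promoters. The next 6 stretches show what these words look like in place. They are the 120 bases just before the first annotated start of the 3 members of each list with the most UMIs in glia that hold an E2F word (S phase) or a CHR word (G2/M) there. Capitals mark the words found on either strand, and where capitals run on, words overlap or touch. The S-phase members come first, Rrm1 (chr7:102441575-102441694, plus strand), Mcm6 (chr1:128359706-128359825, minus strand) and Uhrf1 (chr17:56303201-56303320, plus strand).
Rrm1: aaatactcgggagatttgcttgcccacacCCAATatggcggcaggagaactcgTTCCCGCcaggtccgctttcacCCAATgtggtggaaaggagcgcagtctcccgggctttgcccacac
Mcm6: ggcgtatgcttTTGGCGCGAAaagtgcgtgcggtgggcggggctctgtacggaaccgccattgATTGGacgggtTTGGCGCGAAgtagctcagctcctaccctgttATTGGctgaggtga
Uhrf1: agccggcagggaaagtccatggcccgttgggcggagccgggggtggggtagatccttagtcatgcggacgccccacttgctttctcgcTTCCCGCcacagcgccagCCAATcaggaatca
The G2/M members are Top2a (chr11:99024190-99024309, minus strand), Cdk1 (chr10:69352939-69353058, minus strand) and Mki67 (chr7:135716380-135716499, minus strand).
Top2a: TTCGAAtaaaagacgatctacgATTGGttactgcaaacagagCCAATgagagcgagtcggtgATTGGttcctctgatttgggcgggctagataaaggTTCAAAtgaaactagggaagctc
Cdk1: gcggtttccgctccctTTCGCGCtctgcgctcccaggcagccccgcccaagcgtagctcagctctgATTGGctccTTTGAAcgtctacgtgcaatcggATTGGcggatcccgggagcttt
Mki67: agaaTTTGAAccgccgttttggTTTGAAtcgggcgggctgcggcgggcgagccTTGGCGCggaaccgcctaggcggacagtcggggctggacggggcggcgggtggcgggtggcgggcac
In these stretches Mcm6 held 4 E2F words in 2 overlapping pairs and 2 CCAAT words, Top2a 2 CHR and 3 CCAAT words, and Cdk1 and Mki67 an E2F word beside their CHR words. A match describes letters and not a bound site, and no factor was measured here.

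Glia that held at least 2 phase members differed from glia that held none in genes outside the list, which were singled out after their values were seen. Cdkn1c, an inhibitor of cyclin-dependent kinases, stood at 596 UMIs per 1000 cells in 770 flox cells with members and at 2187 in 2295 flox cells without. In the cKO library it was 365 in 834 cells and 2295 in 1609 cells. Cdkn1a, another inhibitor, was at 329.9 and 767, and at 397 and 725. Cdkn1b, the third, was at 84.4 and 263, and at 116 and 289.6. All 3 genes were thus lower in the glia with members, in both libraries. Fabp7, a fatty acid binding protein of satellite and immature glia, was higher in them, at 1422 against 827 in the flox and 2227 against 1453 in the cKO library. Ptges3 was also higher in them, at 319 against 217 and 156 against 117, and in both kinds of cell it was lower in the cKO library.

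In fibroblast-like cells the G2/M members were lower in the cKO library as a list. 8 of the 19 were measured, all 8 ratios lay below 0, and the median was -0.54 against -0.08 over all genes. 5 were lower by 0.5 log2 or more, where 17.1% of 6224 genes were, and 0 were higher, where 8.85% were. Cenpf stood at 60.2 UMIs per 1000 cells in the flox (47.5 to 75.2) and 16.99 in the cKO library (10.4 to 26.2), with a ratio of -1.82 (-2.61 to -1.10). Mki67, a protein of the surface of mitotic chromosomes, was at 51.6 and 22.9 (-1.17, -1.87 to -0.50). Cdk1 was at 37.5 and 20.4 (-0.88, -1.65 to -0.14), Ccnb2 had 32 and 20 UMIs in all (-0.56, -1.44 to 0.29) and Birc5 was at 56.2 and 39.1 (-0.53, -1.09 to 0.03). Top2a, Ube2c and Prc1 were under the call, with ratios of -0.31, -0.49 and -0.31.

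S-phase members of fibroblast-like cells were split evenly about 0. 8 of 16 were measured, 4 were above 0, and the median was 0.00. Pclaf was the 1 that was lower, where 17.1% of 6224 genes were, and 0 were higher, where 8.85% were. It was at 52.3 and 29.7 (-0.82, -1.45 to -0.21). Pcna was at 82.0 and 93.5 (0.19, -0.21 to 0.59). The balance of the lists therefore differed between the libraries, with a log2 ratio of S-phase to G2/M UMIs of -0.52 (-0.69 to -0.35) in the flox and 0.14 (-0.07 to 0.34) in the cKO library. Without doublet removal the cKO value was -0.27 and without Pcna and Cenpf it was -0.23. Ccne1 was at 14.1 and 37.4 UMIs per 1000 cells (1.41, 0.59 to 2.29) and Ccnd1 at 222 and 318 (0.52, 0.29 to 0.75). Both G1 cyclins measured were thus higher, where 8.85% of all genes were.

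Cell content and doublet removal bear on the fibroblast result. Without the Wnt4-expressing cluster 16 (337 flox and 3 cKO cells) the summed G2/M ratio was -0.97, and 7 of 8 measured members were lower (18.5% of 5680 genes were) and 0 higher (8.33% were). With no doublet removal the summed ratio was -0.39 and the median of 12 measured members -0.17. Then 0 were higher (9.16% of 6613 genes were) and 5 lower (16.8% were), namely Ccna2, Mki67, Cenpf, Cenpe and Tpx2. Each of the 3 clusters shared by both libraries had the lower G2/M sum in the cKO library. Cluster 6, led by Ly6a and Igfbp6, had 944 flox (484 cells) and 574 cKO (364 cells) G2/M UMIs per 1000 cells. Cluster 13 had 395 and 224, and cluster 11 had 208 and 188. The shares of cells with at least 2 phase members did not all go that way. They were 20.2% and 14.8% in cluster 6, 7.89% and 10.3% in cluster 13, and 5.95% and 6.74% in cluster 11. The intervals of each pair of shares overlapped. Summed markers of glia in fibroblast-like cells were 1277 (18 of 18 found) and 1041 (17 of 18 found), and of red blood cells 869.5 and 519, and their part in the result was not tested.

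Members were sparse in the 3 smaller classes. In endothelial-like cells Pcna and Ccnd1 alone reached 50 UMIs. Pcna was higher in the cKO library, at 114 and 215 UMIs per 1000 cells (0.92, 0.05 to 1.82), where 19.0% of 1067 genes were higher and 18.6% lower. Without Pcna the summed ratio of the S-phase members there was -0.74. Of the G2/M members Birc5 had 22 and 3 UMIs in all, Cenpf 13 and 1, and Top2a 13 and 7. Markers of red blood cells summed to 3641 UMIs per 1000 endothelial-like cells in the flox and 2235 in the cKO library, with 5 of 7 markers found in each. Erythroid-like cells themselves held 6700.0 and 6762 G2/M UMIs per 1000 cells (50 flox and 21 cKO cells). Glial markers summed to 1383 (14 of 18 found) and 342 (11 of 18 found, with Sox10 at 0). Fibroblast markers summed to 814 (8 of 12 found) and 235 (6 of 12 found), and mural markers to 539 and 242 (10 of 10 found in each). Their part in the endothelial G2/M result was not tested.

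In mural-like cells no member reached 50 UMIs. Cenpf had 20 flox and 7 cKO UMIs, Ube2c 14 and 18, and Cdk1 8 and 14, so single genes went both ways. Glial markers summed to 1282 (11 of 18 found) and 599 (14 of 18 found), with Sox10 at 0 in both libraries, and their part was not tested. In macrophage-like cells Ccnd1 was lower in the cKO library, at 156 and 68.3 (-1.19, -2.26 to -0.25), where 20.5% of 1713 genes were lower and 11.2% higher. Pcna was at 136 and 106 (-0.37, -1.24 to 0.44). A cluster led by Trem2 and P2ry12, 42 cells of the flox library alone, was part of this class. Red blood cell markers in macrophage-like cells summed to 384 (4 of 7 found) and 1522 (5 of 7 found). Glial markers summed to 1030 in the flox library, where Sox10 was the 1 of 18 at 0. In the cKO library they summed to 360.2, with 11 of 18 at 0, Sox10 among them. The part of these markers was not tested.

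The balance of S-phase to G2/M UMIs differed between classes. As log2 ratios it was -1.02 (flox) and -0.83 (cKO) in glia-like cells, -0.35 and 0.75 in endothelial-like, -0.46 and -0.12 in mural-like, and 0.11 and -0.12 in macrophage-like cells. The lists differ in length and transcript abundance, so the sign of a single value means little, and only its change across classes or libraries is read. Glia thus held the most G2/M for their S-phase UMIs in both libraries. Without the member with the most UMIs of each list (Pcna and Cenpf) the endothelial cKO value was 0.060. By single gene, glia-like cells were the highest of the 5 classes for 13 of 19 G2/M members in the flox library and 16 of 19 in the cKO library. Intervals of the first and next class were apart for 1 and 6 of these. For S-phase members glia-like cells were highest for 4 and 7 of 16, with 0 and 1 apart, so the order of classes is mostly not resolved for S phase. The order was not counted over all genes, and how often intervals part depends on the number of cells in each class. These counts are therefore not read as a trait of the members.

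Other cell cycle genes, listed with the members but not among them, were counted in the same way in glia-like cells. They were not counted without the myelin-led clusters, the setting in which the direction of the S-phase members turned. Of 36 further S-phase genes 32 were measured, 3 were higher and 1 lower, with a median of 0.19, where 10.6% of all genes were higher and 16.0% lower. The highest were Lig1, the ligase that joins replicated strands, at 25.7 and 43.8 (0.77, 0.38 to 1.17), and Gmnn, which blocks a second round of replication, at 34.2 and 54.9 (0.68, 0.34 to 1.03). The lowest were the helicase gene Blm (-0.71, -1.54 to 0.08) and Rad51ap1, a repair gene (-0.32, -0.99 to 0.33). Of 62 further G2/M genes 56 were measured, 5 higher and 6 lower, with a median of 0.03, against the same 10.6% and 16.0%. Ect2, which sets the cleavage furrow, was at 8.20 and 16.4 (1.00, 0.32 to 1.71) and the kinetochore gene Cenpw at 38.3 and 66.9 (0.81, 0.49 to 1.13). Kif2c, a microtubule-depolymerising kinesin, was at 12.6 and 6.02 (-1.06, -1.94 to -0.25), and Gas2l3, a cytoskeletal linker, at 376 and 195 (-0.95, -1.09 to -0.81).

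Of 38 genes that control the cycle 33 were measured in glia-like cells, 6 higher and 5 lower, where 10.6% and 16.0% of all genes were. Wee1, the kinase that holds Cdk1 inactive, was at 10.1 and 32.5 (1.68, 1.12 to 2.27), and Ccnd2, cyclin D2, at 44.0 and 73.0 (0.73, 0.43 to 1.03). Mycn, a growth-promoting transcription factor, was at 22.1 and 7.70 (-1.52, -2.26 to -0.84), and Ccnd3, cyclin D3, at 192 and 85.7 (-1.17, -1.38 to -0.96). Over all glia-like cells the D-type cyclins thus differed in direction, with Ccnd2 higher, Ccnd3 lower and Ccnd1 under the call. Without the myelin-led clusters Ccnd1 was lower (-0.59), and the control genes were not counted in that setting. In fibroblast-like cells 6 of 21 further G2/M genes measured were lower and 0 higher, and 3 of 12 S-phase genes were lower and 0 higher. Of 20 control genes there, 6 were higher and 2 lower. Of all 6224 genes measured in that class 8.85% were higher and 17.1% lower. Cdkn1a, singled out after its value was seen, was at 111 and 343 UMIs per 1000 fibroblast-like cells (1.63, 1.35 to 1.92).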

How the data were processed

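Single cells of 2 dorsal root ganglion libraries (10x Genomics 3′ v3.1) were analysed from the deposited UMI counts per gene and barcode. The counts came from cellranger 6.1.2 per the file headers, whereas the submitters' processing notes name Cell Ranger 5.0.1 and Scanpy, with build mm10. Barcodes were kept from 1000 UMIs and 500 genes upward and up to 15% mitochondrial UMIs. Scrublet's own threshold marked 0 flox and 2 cKO cells, so the top scores (0.8% per 1000 cells) were removed, 607 and 569 cells. Both libraries were clustered together with scanpy 1.11.5 (2000 variable genes, 30 components, 15 neighbours, Leiden resolution 1.0), leaving out 174 cell cycle genes. 33 clusters resulted, and 5 stayed unnamed. A cluster was named from at least 3 markers of 1 class. The naming rule was chosen after the leading genes of the clusters had been seen, so class names are rebuilt ones.

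Each cell was thinned to 1000 UMIs without replacement. Levels carry exact Poisson, shares Clopper-Pearson and ratios exact conditional binomial intervals at 95%. With 1 library per genotype there was no test. A gene with at least 50 UMIs over both libraries was called higher or lower at 0.5 log2. The calculation was checked on simulated data. All 38 members are named, and from each wider cell cycle list the 2 highest and 2 lowest ratios in glia-like cells. Members and lists were chosen with earlier results of these data known. Scripts ran under Python 3.11.15 with scipy 1.17.1 and numpy 2.4.6, and edgeR 4.0.16 gave TMM scaling factors only.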

Additional observations from a re-analysis of the deposited data

Results flagged for a closer look

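Cells outside the 5 classes also held phase members above the neuron-like share of 2.32% (flox) and 5.52% (cKO) with at least 2 members. The share was 26.5% in cluster 20, oligodendrocyte-like cells of the flox library led by Olig2 and Gpr17, genes of oligodendrocyte precursors and newly formed oligodendrocytes. In cluster 24, astrocyte-like cells of the flox library, it was 19.9%. Cluster 27, unnamed and led by S100a8 and Camp, genes of the neutrophil lineage, had 31.2% in the flox and 43.1% in the cKO library. Cluster 28, also unnamed, had 14.3% in the flox library. Erythroid-like cells of cluster 29 had 66.0% and 76.2%.

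Summed G2/M members were higher in the cKO library in glia-like cells and lower in 3 other classes. The glial log2 ratio exceeded that of fibroblast-like cells by 0.77, that of endothelial-like cells by 1.46 and that of mural-like cells by 0.85. These differences were not tested. The glial ratio itself was 0.07, with an interval that included 0 with another random seed, at 500 UMIs per cell, at a mitochondrial limit of 10% and with cell cycle genes kept for clustering. It was -0.39 without the clusters led by myelin genes.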

How the results depend on the processing

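No paired analysis was possible because each genotype has 1 library. Of 315 recomputed phase results 277 stayed within their interval, 38 moved beyond it and 0 passed the call in the opposite direction, although both glial sums changed sign without the myelin-led clusters. Of 37 single glial members 34 stayed, 2 moved and Bub1 reversed, to 0.015 without thinning. In glia-like cells the S-phase ratio was 0.36 at 2000 UMIs per cell, 0.35 without thinning, 0.50 with each library clustered alone and -0.13 without the myelin-led clusters. The G2/M ratio was 0.19, 0.16, 0.43 and -0.39 under the same settings, and the ratio of shares with at least 2 members was 0.70 and -0.021 under the last 2. The glial S-phase to G2/M ratio was -1.22 (flox) and -1.03 (cKO) without thinning and -1.14 and -1.01 without Pcna and Cenpf. It was -1.16 in the flox library without the myelin-led clusters, and -0.96 in the cKO library clustered alone. In fibroblast-like cells thinned to 500 UMIs the S-phase ratio was -0.24, the G2/M ratio -0.94 and the ratio of shares -0.83. The G2/M ratio was -0.39 with no doublet removal and -0.97 without clusters nearly absent from 1 library. Their S-phase to G2/M ratio in the flox library was -0.71 without Pcna and Cenpf and -0.80 without those clusters, and in the cKO library -0.23 without the 2 genes and -0.27 with no doublet removal. In endothelial-like cells the S-phase ratio was -0.74 without Pcna, the ratio of shares -1.18 at 500 UMIs and -1.42 at 3 members or more, and the S-phase to G2/M ratio of the cKO library 0.060 without Pcna and Cenpf. In mural-like cells the G2/M ratio was -0.056 at 2000 UMIs, -0.37 without thinning and -0.25 with another seed. Their S-phase to G2/M ratio was -1.07 (flox) and -0.78 (cKO) without thinning, and -0.62 (cKO) at 2000 UMIs. In macrophage-like cells the S-phase ratio was -0.91 at 500 UMIs, and the S-phase to G2/M ratio was -0.21 (flox) without Pcna and Cenpf and -0.71 (cKO) at 500 UMIs. The log2 ratio of TMM factors, cKO over flox, was -0.14 in fibroblast-like, -0.18 in endothelial-like and -0.15 in mural-like cells. Divided by them the G2/M ratios were -0.56, -1.21 and -0.64, and the fibroblast-like S-phase ratio, whose interval includes 0, was 0.10. The cause of these shifts was not tested. At 1000 UMIs per cell most members had under 50 UMIs in the endothelial-like, mural-like and macrophage-like classes, which limits them to summed values. The myelin-led setting and the subsets by cluster were chosen after seeing the data.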
